A study of Mus musculus with 64 samples.

Results

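The comparison concerned valproate in the ventral tegmental area (VTA, a midbrain region that holds many dopamine neurons) of mice whose RNA showed the higher of 2 levels of circadian clock output. Of 64 libraries in the series, 32 came from mice given valproate (VPA) or its vehicle, and 18 of these were kept, 9 from VPA mice and 9 from vehicle mice. They were selected on a clock score, averaging log2 CPM (counts over the TMM-corrected library total) across Dbp, Tef, Per2, Per3, Nr1d1, Nr1d2, Ciart and Bhlhe41, which had to exceed 4.62. Over all 64 libraries, 4.62 is the middle of the widest gap in the score. The highest score under it was 4.33 and the lowest above it was 4.91.

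VPA is a mood stabiliser and anticonvulsant that, among other actions, inhibits histone deacetylases, the enzymes that remove acetyl groups from histones. The circadian clock is a transcriptional loop in which CLOCK and its partner BMAL1 bind E-box sequences and activate genes for their own repressors, among them Per2, Per3 and Ciart, and for the output factors Dbp and Tef. Clock delta 19 is a dominant-negative allele of Clock that weakens this activation. A VTA punch also holds glia, including the oligodendrocytes that wrap axons in myelin.

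The mice were adult males of strain 129S1/Svlm, either labelled wildtype or carrying the Clock delta 19 label, and each library came from 1 mouse. VPA or its vehicle was given for 14 days. Tissue was punched bilaterally (1 mm) from brains collected 6 h after lights on (ZT6), some 24 h after the final dose. The VPA group held mice 1 to 8, labelled wildtype, and mouse 26, labelled Clock mutant. The vehicle group held mice 9, 11 and 12, labelled wildtype, and mice 34, 49, 50, 51, 52 and 57, labelled Clock mutant. The labels name no further allele or agent for either group. The design states 8 mice for each genotype and treatment, whereas the VPA vehicle labels gave 3 wildtype and 13 mutant mice. With 7 libraries labelled mutant at the higher level of clock output, some genotype labels may be wrong, which was not tested, and every result that uses the label rests on the labels as given. The kept groups differed in genotype label as well as in treatment, with 1 of 9 VPA libraries and 6 of 9 vehicle libraries labelled mutant. The remaining 14 libraries, 7 VPA and 7 vehicle, all carried the mutant label and lay under 4.62.

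The E-box is shown in the promoters of score genes because these genes decided which libraries were compared. The RefSeq table (GRCm38.p6, from 250 bases before to 50 after a gene's start) held 7 of the 8 score genes in 8 windows, and 4 of the 8 windows held the palindrome CACGTG, against 7.15% of all 32851 windows. The pair below are the Ciart window with 3 copies (chr3:95882179-95882478, minus strand) and a Tef window with 1 copy (chr15:81811164-81811463, plus strand). Capitals mark CACGTG, which reads the same on both strands.
Ciart: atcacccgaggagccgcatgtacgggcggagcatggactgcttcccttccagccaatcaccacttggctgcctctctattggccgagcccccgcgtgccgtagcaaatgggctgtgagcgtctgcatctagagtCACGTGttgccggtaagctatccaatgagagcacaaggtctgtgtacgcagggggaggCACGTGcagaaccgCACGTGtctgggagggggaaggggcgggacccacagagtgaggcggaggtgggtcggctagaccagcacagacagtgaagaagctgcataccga
Tef: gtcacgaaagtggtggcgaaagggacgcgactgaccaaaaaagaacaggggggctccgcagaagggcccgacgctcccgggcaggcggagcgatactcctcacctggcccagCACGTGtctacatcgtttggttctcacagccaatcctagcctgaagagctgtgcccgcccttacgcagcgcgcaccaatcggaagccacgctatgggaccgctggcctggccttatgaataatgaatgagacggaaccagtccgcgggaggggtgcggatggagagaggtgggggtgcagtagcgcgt
The match describes letters in these windows only.

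The clock score lay between 5.003 and 5.38 (median 5.18) in the VPA libraries, against 5.03 to 5.64 (median 5.13) in the vehicle libraries. The 7 kept libraries labelled mutant scored 5.003 to 5.64 and the 11 labelled wildtype 5.02 to 5.38, so the ranges overlapped, and the highest score was that of vehicle mouse 50, labelled mutant. Per2, a repressor in the clock loop, had 6.48 to 10.7 CPM (median 7.46) in VPA libraries, against 3.06 to 10.9 CPM (median 5.11) in vehicle libraries. Nr1d1, a nuclear receptor that represses Bmal1, had 22.9 to 43.5 CPM (median 30.4) in VPA libraries, against 27.6 to 48.5 CPM (median 42.2) in vehicle libraries. The groups overlapped for both genes. These genes chose the libraries, so their levels are a description and carry no test. Clock itself had 60.1 to 77.5 CPM (median 66.0) in VPA libraries and 57.8 to 85.1 CPM (median 65.5) in vehicle libraries, and the delta 19 allele, which alters splicing, cannot be read from a count per gene.

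**Figure D1:**
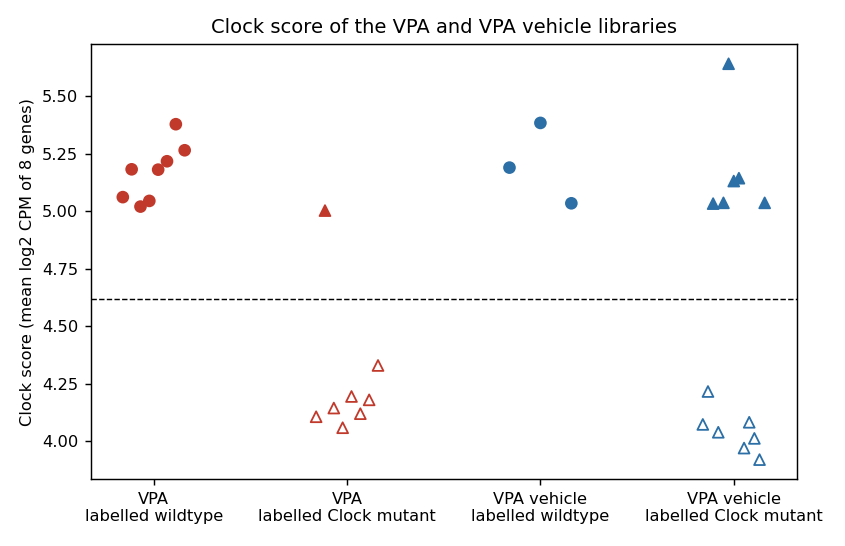
Clock score (mean log2 CPM of 8 genes) of the 32 VPA and VPA vehicle libraries, by treatment and genotype label, with 1 point per mouse. Filled points are the 18 kept libraries and open points the 14 under the dashed line at 4.62. The 7 mutant-labelled libraries that were kept lie between 5.003 and 5.64, and the 11 wildtype-labelled ones between 5.02 and 5.38.

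Library totals were 25.7 to 37.5 M counts (median 32.1) in the VPA group and 21.3 to 28.95 M (median 25.4) in the vehicle group. VPA mice 1 to 6 each had a larger total than every vehicle library, so depth moved with treatment. Tyrosine hydroxylase (Th), which makes the dopamine precursor, checks the tissue. It had 44.1 to 1716 CPM (median 947) in VPA libraries and 201 to 1170 CPM (median 930) in vehicle libraries. VPA mice 3 and 26 and vehicle mouse 34 were under 8 log2 CPM for Th, and the lowest summed CPM of the 23 dopamine neuron markers in either group was 754 in the VPA group and 2203 in the vehicle group. The 23 dopamine neuron markers had a median log2 fold change of 0.01, and 0 of them passed in edgeR's quasi-likelihood test.

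The comparison of VPA with vehicle asked how 14 days of the drug changed the VTA where clock output was at the higher level. Of the 8 members of the gene lists that passed, 6 belonged to the oligodendrocyte lists, and these fell with VPA. They included Ugt8a, Fa2h and Qdpr among the mature myelin genes, and Enpp6 and Bcas1 among those of precursors and newly forming oligodendrocytes. The other 2 were Aqp4 of astrocytes, which fell, and the glucocorticoid-induced co-chaperone Fkbp5, which rose. The oligodendrocyte lists held 15 and 14 tested genes, and all lists were chosen with earlier results of these data known. Of 14597 genes tested with edgeR's quasi-likelihood test, 89 passed an adjusted p of 0.05 (Benjamini-Hochberg), which is 0.61% of the genes. Of these, 83 fell, or 0.569%, with log2 fold changes of -1.78 to -0.19 (median -0.53), and 6 rose, or 0.0411%, by 0.23 to 0.74 (median 0.55). At an unadjusted p under 0.05, 1082 genes were lower (7.41%) and 769 higher (5.27%). DESeq2 called 309 genes, of which 238 were lower and 71 higher.

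This count moved with depth, with label and with single libraries. With the library total as a covariate 0 genes passed (2242 at an unadjusted p under 0.05, against 1851 without it), and without the 6 deepest VPA libraries 0 passed (1437 at an unadjusted p under 0.05). With the genotype label as a term 5 passed: Prrg1, Padi2, Lcat and Lpar1, which were lower, and Hcrt, which was higher. Hcrt had 18.6 CPM in VPA mouse 26, the only VPA library here labelled mutant, and at most 1.33 CPM in the others. Without that mouse (no label term) its log2 fold change was 0.72, against 2.78 with it, and it passed in neither. Among mice labelled wildtype alone (8 VPA, 3 vehicle) 4 passed: Padi2, Bfsp2, Igsf1 and Igfbp5, all lower. In these 4 settings the 89 genes kept the direction of their fold changes. Treatment, depth and label cannot be fully told apart in these groups. Leaving out 1 VPA library gave 31 genes without mouse 1, 66 without mouse 2, 99 without mouse 3, 24 without mouse 4 and 49 without mouse 5. It gave 21 without mouse 6, 104 without mouse 7, 48 without mouse 8 and 98 without mouse 26. Leaving out 1 vehicle library gave 269 genes without mouse 9, 223 without mouse 11, 30 without mouse 12, 217 without mouse 34, 27 without mouse 49, 32 without mouse 50, 24 without mouse 51, 16 without mouse 52 and 53 without mouse 57.

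Lpar1, a receptor for lysophosphatidic acid found on myelinating oligodendrocytes, had the smallest p (chromosome 4, 58435255 to 58553898 on mm10). It had 64.8 to 90.1 CPM (median 80.3) in VPA libraries, against 97.1 to 139 CPM (median 112) in vehicle libraries. Every VPA library lay under the lowest vehicle library. Its means were 78.8 ± 8.00 CPM with VPA and 117 ± 16.3 CPM with vehicle (SD, n = 9 each), a log2 fold change of -0.58 (SE 0.08, edgeR adjusted p = 0.00537). In the 3 VPA libraries no deeper than the vehicle ones it had 69.5 to 81.9 CPM, against 64.8 to 90.1 CPM in the 6 deeper ones. The log2 fold change was -0.57 with the label term (adjusted p = 0.0431) and -0.56 with the library total (adjusted p = 0.0926). It was -0.59 without the 6 deepest VPA libraries (adjusted p = 0.265) and -0.49 among mice labelled wildtype (adjusted p = 0.320). Of these 4 settings, it passed only with the label term. In all, 6 genes had every VPA library under the lowest vehicle library (0.0411% of those tested): Lpar1, Ctsk, Rab7b, Micall1, the predicted gene 4930506C21Rik and Wnk1, of which Wnk1 did not pass (adjusted p = 0.0506). Those not covered by the naming rule were picked after their values were seen. The reverse, every VPA library above the highest vehicle library, held for 0 genes (0%).

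Ugt8a, which makes the myelin lipid galactosylceramide, is on chromosome 3 at 125865271 to 125938619 (mm10). It had 161 to 287 CPM (median 255) in VPA libraries, against 282 to 437 CPM (median 397) in vehicle libraries. Only the highest VPA value reached the vehicle range. Its log2 fold change was -0.61 (SE 0.10, edgeR adjusted p = 0.0110). By label, Ugt8a was 161 to 287 CPM in the 8 VPA mice labelled wildtype, against 306, 325 and 437 CPM in the 3 vehicle mice with that label, which did not overlap. The 6 vehicle mice labelled mutant had 282 to 411 CPM. The log2 fold change of Ugt8a was -0.62 with the label term (adjusted p = 0.113) and -0.52 among mice labelled wildtype (adjusted p = 0.691), and neither passed. Fa2h, which hydroxylates the fatty acids of myelin lipids, had 43.8 to 68.6 CPM (median 55.3) with VPA and 58.98 to 103 CPM (median 77.3) with vehicle, and fell by 0.50 on the log2 scale (adjusted p = 0.0253). Qdpr, which regenerates tetrahydrobiopterin and is abundant in oligodendrocytes, had 453 to 697 CPM (median 575) with VPA and 606 to 927 CPM (median 795) with vehicle, and fell by 0.47 (adjusted p = 0.0244). For Fa2h and Qdpr, 5 of 9 VPA libraries lay under the lowest vehicle library, and the ranges overlapped.

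All 15 mature myelin genes had lower fitted values with VPA, with a median log2 fold change of -0.39 against 0.00 over all genes tested. Of the 15, 4 passed and 12 had an unadjusted p under 0.05. The summed CPM of the 15 was 12646 to 20936 (median 16062) in VPA libraries, against 16888 to 24373 (median 22048) in vehicle libraries. Among mice labelled wildtype alone 11 of 15 lay under 0 (median -0.14), and 0 passed (649 of all genes tested had an unadjusted p under 0.05). With the library total as a covariate the median was -0.40 and 0 passed. Leaving out 1 library gave 1 myelin gene without VPA mouse 4 or 6, or without vehicle mouse 12, 49, 50, 51 or 52. It gave 2 without VPA mouse 1 or 5, and 9 without vehicle mouse 9. The other omissions gave 3 to 6. In bulk tissue, fewer oligodendrocytes and less of this RNA per oligodendrocyte cannot be told apart.

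**Figure D2:**
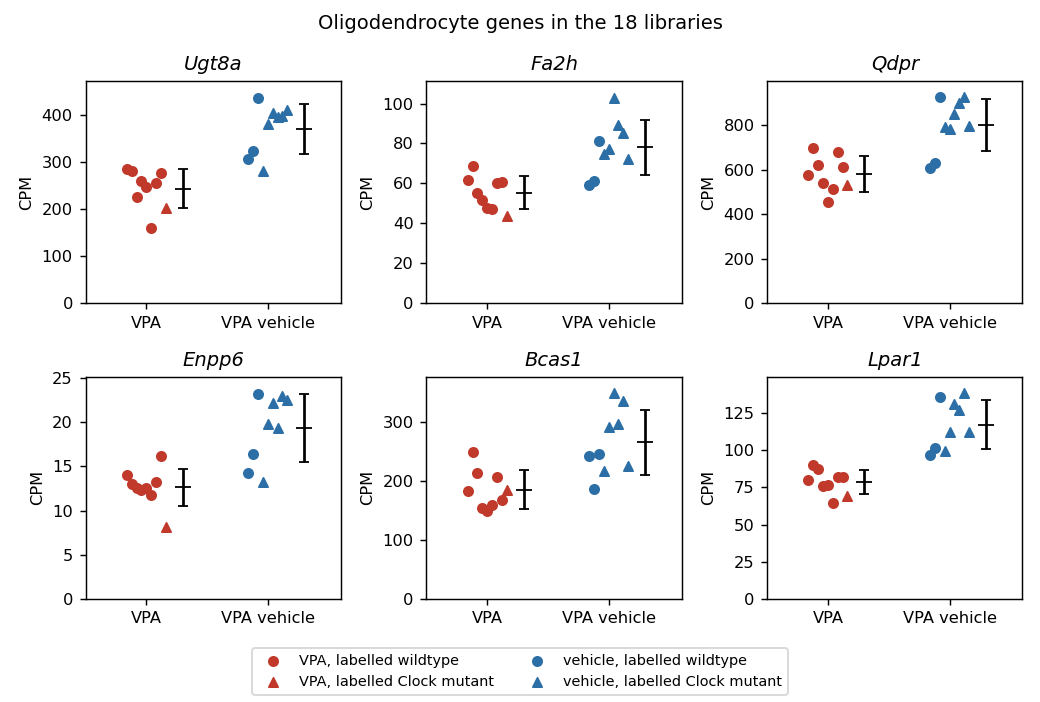
CPM of 6 oligodendrocyte genes in the 9 VPA and 9 vehicle libraries, with 1 point per mouse, circles for the wildtype label and triangles for the Clock mutant label. Black bars give the mean and SD. Lpar1 is the only one of the 6 with no overlap, at 64.8 to 90.1 CPM with VPA and 97.1 to 139 CPM with vehicle.

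Of 14 genes of oligodendrocyte precursors and newly formed oligodendrocytes, 9 were lower and 5 higher in fitted value, with a median log2 fold change of -0.11. The higher ones reached at most 0.14. At an unadjusted p under 0.05, 4 were lower and 0 higher, and 2 passed, both lower. The genes named here are from the lower side. Enpp6, a choline phosphodiesterase of newly forming oligodendrocytes, had 8.18 to 16.1 CPM (median 12.6) with VPA, against 13.2 to 23.2 CPM (median 19.8) with vehicle. It fell by 0.61 on the log2 scale (edgeR adjusted p = 0.0244), and 6 of 9 VPA libraries were under the lowest vehicle library. Bcas1, which marks oligodendrocytes that begin to myelinate, had 149 to 250 CPM (median 183) with VPA and 186 to 350 CPM (median 246) with vehicle, and fell by 0.52 (adjusted p = 0.0475). Gpr37, a receptor of maturing oligodendrocytes, did not pass (log2 fold change -0.38, adjusted p = 0.0758). Further genes that fell and are known from oligodendrocytes were picked after their values were seen. They included the gap junction gene Gjb1 (-0.56, adjusted p = 0.0434), the carbonic anhydrase gene Car2 (-0.41, adjusted p = 0.0306) and Ndrg1 (-0.38, adjusted p = 0.0325).

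Pmp22, Padi2 and Fgfr2, also named for their small p, were on none of the lists. Pmp22, a membrane protein of peripheral myelin, had 44.99 to 58.9 CPM (median 51.2) with VPA, against 56.7 to 99.6 CPM (median 90.2) with vehicle, and fell by 0.66 on the log2 scale (edgeR adjusted p = 0.00759). Padi2, which converts arginine to citrulline in proteins that include myelin basic protein, had 28.5 to 44.4 CPM (median 37.6) with VPA and 37.9 to 73.8 CPM (median 58.9) with vehicle, and fell by 0.65 (adjusted p = 0.00854). Padi2 also passed with the label term (-0.73, adjusted p = 0.0273) and among mice labelled wildtype (-0.84, adjusted p = 0.0294), and not with the library total (-0.68, adjusted p = 0.116). Fgfr2, a fibroblast growth factor receptor that promotes myelin growth, had 62.998 to 89.7 CPM (median 77.0) with VPA and 84.3 to 134 CPM (median 117) with vehicle, and fell by 0.57 (adjusted p = 0.0110). For Fgfr2, 8 of 9 VPA libraries were under the lowest vehicle library.

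Serpinb1a, Serpind1 and Ctsk were named for their small p. Serpinb1a, an inhibitor of neutrophil serine proteases, had 36.2 to 51.7 CPM with VPA and 47.4 to 102 CPM with vehicle, a log2 fold change of -0.83 (edgeR adjusted p = 0.00553). Serpind1, an inhibitor of thrombin, had 5.401 to 9.64 CPM with VPA and 8.79 to 23.1 CPM with vehicle (-0.94, adjusted p = 0.0102). Ctsk, the lysosomal protease cathepsin K, had 2.55 to 3.75 CPM with VPA and 3.78 to 6.58 CPM with vehicle (-0.73, adjusted p = 0.00854). Ctsk showed no overlap between the groups, and for both inhibitors the ranges overlapped.

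Col3a1, a chain of fibrillar collagen, had the largest fall among the 15 named genes with the smallest p (chromosome 1, 45311538 to 45349706 on mm10). It had 1.22 to 3.37 CPM (median 1.80) with VPA, against 2.10 to 7.65 CPM (median 5.06) with vehicle, a log2 fold change of -1.31 (SE 0.23, edgeR adjusted p = 0.0131). The lowest vehicle values lay within the VPA range. Rab7b, a small GTPase of traffic from late endosomes, fell by 0.90 on the log2 scale (adjusted p = 0.0110), and Micall1, an adaptor of endosomal recycling, fell by 0.53 (adjusted p = 0.0131). Fbxo32, a ubiquitin ligase subunit known from muscle wasting, fell by 0.63 (adjusted p = 0.00854). Serinc5, a multipass membrane protein, fell by 0.43 (adjusted p = 0.0110), Bfsp2, a filament protein known from the lens, by 0.74 (adjusted p = 0.0131), and Piga, which acts in the first step of the lipid anchor that tethers proteins to the cell surface, by 0.45 (adjusted p = 0.0190).

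Of 15 astrocyte markers, 9 were lower and 6 higher in fitted value (4 and 2 at an unadjusted p under 0.05), and Aqp4, the water channel of astrocyte endfeet, was the only one that passed. It had 212 to 375 CPM (median 257) in VPA libraries, against 273 to 567 CPM (median 420) in vehicle libraries. The log2 fold change was -0.60 (SE 0.13, edgeR adjusted p = 0.0325), and 6 of 9 VPA libraries were under the lowest vehicle library. The calcium-binding protein gene S100b (-0.28, adjusted p = 0.162) and the retinoid-binding protein gene Rlbp1 (-0.39, adjusted p = 0.216) did not pass. Of the higher ones, picked after their values were seen, the glutamate transporter gene Slc1a3 (0.32, adjusted p = 0.284) and the growth factor receptor gene Fgfr3 (0.20, adjusted p = 0.388) did not pass either. The list as a whole had a median of -0.03, and its summed CPM was 6499.6 to 8475 with VPA and 6878 to 8299 with vehicle, so the ranges of the sum overlapped. Etnppl, an enzyme of phosphoethanolamine breakdown that is found in astrocytes, rose: it had 113 to 186 CPM (median 159) with VPA, against 84.6 to 173 CPM (median 92.3) with vehicle (log2 fold change 0.59, adjusted p = 0.0374). Every VPA library was above the vehicle median for Etnppl and 2 were above the highest vehicle library.

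Fkbp5, a co-chaperone that glucocorticoid receptors induce and that dampens them in turn, rose (chromosome 17, 28399094 to 28517527 on mm10). It had 26.1 to 43.3 CPM (median 29.1) in VPA libraries, against 18.6 to 26.9 CPM (median 20.04) in vehicle libraries. The means were 31.8 ± 6.64 CPM with VPA and 21.4 ± 2.91 CPM with vehicle (SD, n = 9 each), a log2 fold change of 0.57 (SE 0.11, edgeR adjusted p = 0.0190). In the 3 VPA libraries no deeper than the vehicle ones Fkbp5 had 26.1 to 27.4 CPM, against 26.5 to 43.3 CPM in the 6 deeper ones. Without those 6 the log2 fold change was 0.32 (adjusted p = 0.418), and with the label term it was 0.47 (adjusted p = 0.327).

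Of 17 measured glucocorticoid responsive genes, 15 had higher fitted values with VPA, 11 with an unadjusted p under 0.05, and 1, Fkbp5, passed. The median log2 fold change was 0.50. Pdk4, a kinase that limits pyruvate oxidation, had 19.5 to 59.4 CPM (median 31.2) with VPA and 10.4 to 30.0 CPM (median 16.2) with vehicle (0.82, edgeR adjusted p = 0.0955). Sult1a1, a sulfotransferase, had 11.4 to 28.1 CPM (median 20.9) with VPA and 6.09 to 25.5 CPM (median 8.34) with vehicle (0.91, adjusted p = 0.101). For Pdk4 6 of 9 VPA libraries exceeded the highest vehicle library, and for Sult1a1 1 did. Hsd11b1, which regenerates active glucocorticoid inside cells, was picked after its values were seen and fell: it had 20.3 to 40.1 CPM with VPA and 32.8 to 46.5 CPM with vehicle (-0.47, adjusted p = 0.0372).

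**Figure D3:**
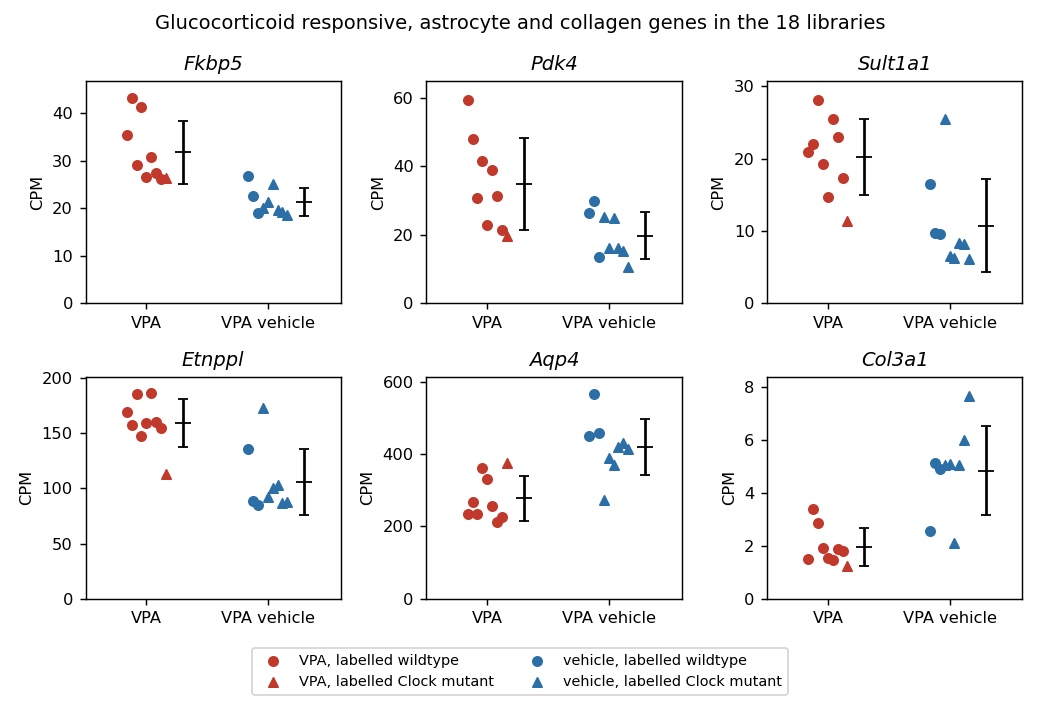
CPM of Fkbp5, Pdk4, Sult1a1, Etnppl, Aqp4 and Col3a1 in the 9 VPA and 9 vehicle libraries, with 1 point per mouse, circles for the wildtype label and triangles for the Clock mutant label. Black bars give the mean and SD. Fkbp5 spans 26.1 to 43.3 CPM with VPA and 18.6 to 26.9 CPM with vehicle, and Aqp4 is 212 to 375 CPM with VPA and 273 to 567 CPM with vehicle.

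The other named genes that rose were Cotl1, an actin-binding protein, Kctd5, an adaptor of ubiquitin ligases, and Heph, a copper enzyme that oxidises iron. Cotl1 had 111 to 145 CPM (median 125) with VPA and 97.4 to 116 CPM (median 105) with vehicle, a small but even difference (0.23, edgeR adjusted p = 0.0280) in which 8 of 9 VPA libraries exceeded the highest vehicle library. Kctd5 had 49.6 to 57.9 CPM with VPA and 37.2 to 53.8 CPM with vehicle (0.27, adjusted p = 0.0432). Heph had 29.4 to 42.9 CPM with VPA and 17.7 to 39.2 CPM with vehicle (0.53, adjusted p = 0.0496).

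The cholesterol synthesis genes were uniformly lower in fitted value, and 0 of them passed. All 24 had log2 fold changes under 0, from -0.37 to -0.04 with a median of -0.17, and 13 had an unadjusted p under 0.05 in edgeR. Msmo1, a sterol methyl oxidase, had 246 to 302 CPM (median 263) with VPA and 277 to 393 CPM (median 321) with vehicle (-0.28, adjusted p = 0.0591). Dhcr7, the last enzyme of one route to cholesterol, had 50.2 to 67.1 CPM with VPA and 51.3 to 92.1 CPM with vehicle (-0.35, adjusted p = 0.0878). Mvd, an enzyme of the mevalonate pathway, had 19.3 to 23.9 CPM with VPA and 19.9 to 33.8 CPM with vehicle (-0.37, adjusted p = 0.0878). The summed CPM of the list was 2242 to 2999 with VPA and 2543 to 3567 with vehicle. The fall was not particular to VPA: with ACY957 against its own vehicle at higher clock output the list had a median of -0.18. With VPA at lower clock output the median was -0.07.

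Immediate early genes, which neurons switch on after activity, were mostly higher in fitted value, with 13 of 16 above 0 and a median log2 fold change of 0.35, and 0 passed in edgeR (9 at an unadjusted p under 0.05, of which 8 were higher). Arc, which acts at synapses, had the opposite sign, at 7.43 to 16.98 CPM (median 8.59) with VPA and 9.07 to 17.9 CPM (median 14.1) with vehicle (-0.45, adjusted p = 0.250). Junb (0.50, adjusted p = 0.278) and Fosl2 (0.60, adjusted p = 0.312), both subunits of the AP-1 factor, overlapped widely between the groups. With VPA at lower clock output the immediate early list had a median of -0.32, the opposite sign. With ACY957 against its own vehicle at higher clock output its median was -0.02. For insulin-like growth factors and their binding proteins 0 of 10 passed (4 at an unadjusted p under 0.05). Igfbp5 had 90.9 to 182 CPM (median 106) with VPA and 120 to 212 CPM (median 156) with vehicle (-0.49, adjusted p = 0.0878). Igfbp7 (-0.31, adjusted p = 0.0894) and Igfbp3 (0.47, adjusted p = 0.113) had opposite signs.

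No gene passed on the lists of histone deacetylases and corepressors, or among subunits of the GABA-A receptors that carry fast inhibition. Of 20 class I histone deacetylases and corepressors, 0 passed in edgeR (1 at an unadjusted p under 0.05), with fold changes between -0.16 and 0.29. The nearest were Rbbp7, a histone-binding subunit (0.11, adjusted p = 0.276), Sap30, a Sin3 complex subunit (0.29, adjusted p = 0.402), and Chd4, the NuRD remodeller (-0.16, adjusted p = 0.414). Of the 7 class II and IV deacetylases, 0 passed and 0 had an unadjusted p under 0.05. Of 14 GABA-A receptor subunits, 11 were higher in fitted value and 0 passed (1 at an unadjusted p under 0.05). Gabrg1 had 122 to 210 CPM with VPA and 86.8 to 168 CPM with vehicle (0.32, adjusted p = 0.298), while Gabra3 (0.10, adjusted p = 0.409) and Gabre (0.50, adjusted p = 0.439) were further from the threshold.

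Vessel and microglia markers were lower in fitted value for most members without passing. Of 18 endothelial and mural markers, 16 were lower, the median was -0.17, and 0 passed in edgeR (4 at an unadjusted p under 0.05). Tek, the angiopoietin receptor, had 12.7 to 17.2 CPM with VPA and 15.3 to 22.1 CPM with vehicle (-0.29, adjusted p = 0.104), Rgs5 of pericytes gave -0.24 (adjusted p = 0.268), and Vwf, the clotting factor of endothelium, gave 0.45 (adjusted p = 0.256). Of 14 microglia markers, 10 were lower and 4 higher (median -0.05), and 0 passed (4 at an unadjusted p under 0.05, all lower). The summed CPM of the microglia list was 703 to 965 (median 809) with VPA and 680 to 951 (median 831) with vehicle, so the ranges overlapped. The microglia genes named are from the lower side. They were Ctss, a lysosomal protease (-0.24, adjusted p = 0.185), Trem2, a lipid receptor (-0.25, adjusted p = 0.264), and its signalling partner Tyrobp (-0.19, adjusted p = 0.269).

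Hypothalamic peptides check whether a punch reached the neighbouring hypothalamus. Pmch, the precursor of melanin-concentrating hormone, had 348 CPM in VPA mouse 26, and the next VPA library had 21.04 CPM, while vehicle libraries had 3.28 to 12.8 CPM (log2 fold change 2.99, edgeR adjusted p = 0.133). Hcrt, the orexin precursor, had 18.6 CPM in VPA mouse 26 and at most 1.33 CPM in the other VPA libraries, against 0.04 to 0.82 CPM in vehicle libraries (2.78, adjusted p = 0.136). Tac2, the neurokinin B precursor, had 30.9 CPM in that mouse and at most 6.57 CPM in the others, against 0.42 to 3.06 CPM in vehicle libraries (1.52, adjusted p = 0.349). Mouse 26, which also had the least Th, thus carried the highest value of all 3 genes. Without it the log2 fold change was 0.40 for Pmch (adjusted p = 0.638), 0.72 for Hcrt (adjusted p = 0.402) and 0.21 for Tac2 (adjusted p = 0.879) in edgeR. The summed CPM of the list was 39.7 to 471 with VPA and 34.3 to 310.3 with vehicle, so the group ranges overlapped. Of the 12 peptides tested 0 passed (3 at an unadjusted p under 0.05). Without mouse 26, 98 genes passed in all, 13 of 15 myelin genes were lower and 4 of them passed. Without the 3 libraries low in Th, 252 genes passed, of which 185 were lower, and 4 myelin genes were among them.

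**Figure D4:**
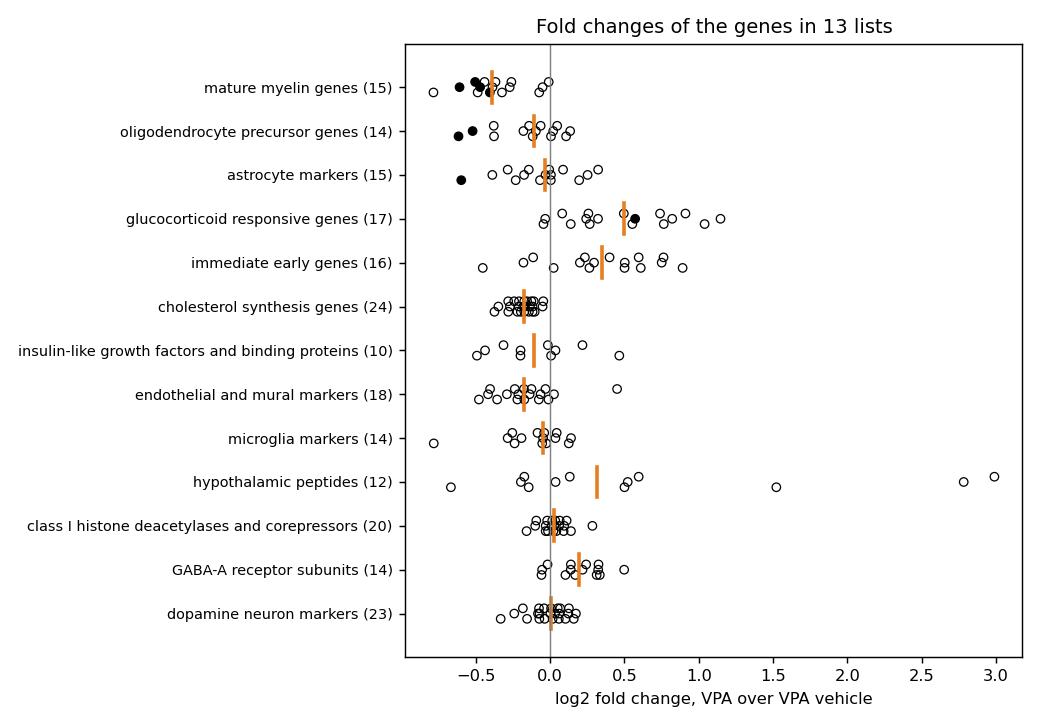
Log2 fold change of VPA over vehicle for each tested gene of 13 lists, with the number of genes tested after each name. Filled points passed an adjusted p of 0.05, orange bars mark list medians and the grey line the median of all genes. The myelin and cholesterol lists lie wholly under 0, with medians of -0.39 and -0.17, and the glucocorticoid list has a median of 0.50.

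A further test asked whether the VPA difference at higher clock output differed from that in the 14 libraries at lower clock output. Those 14 share no mouse with the 18. All 14 carried the mutant label, and their totals overlapped, at 25.2 to 28.2 M with VPA and 23.1 to 30.6 M with vehicle. At higher clock output the treatment groups differed in label and in depth. The part of label and depth in the interaction was not tested. In edgeR's interaction test 0 of 15024 genes passed (0%), 870 had an unadjusted p under 0.05, and DESeq2 called 1 gene. Within the lower set itself 0 genes passed (560 at an unadjusted p under 0.05). The 15 myelin genes had a median log2 fold change of 0.00 there. Ugt8a was -0.61 (SE 0.15) at higher and -0.26 (SE 0.17) at lower clock output, a difference of -0.34 (SE 0.22, adjusted p = 0.879). Fa2h was -0.50 (SE 0.11) at higher and -0.02 (SE 0.13) at lower clock output, a difference of -0.48 (SE 0.17, adjusted p = 0.844). Fkbp5 was 0.57 (SE 0.14) at higher and 0.14 (SE 0.16) at lower clock output, a difference of 0.43 (SE 0.22, adjusted p = 0.858). A difference between the levels of clock output was thus not shown for any of the 3 genes.

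Of the 83 genes that fell at higher clock output, 72 were also lower in fitted value at lower clock output, where their median log2 fold change was -0.14. Among all 7267 genes lower at higher clock output, 54.5% were also lower there. All 6 genes that rose were also above 0 there, with a median of 0.13, against 57.9% of all genes higher at higher clock output. The 5 named genes with the smallest interaction p were Snapc1, a subunit of the small nuclear RNA activating complex, Mmrn2, a matrix protein of endothelium, Fastkd5, a mitochondrial RNA processing factor, Edn3 and D10Wsu102e. Mmrn2 had a log2 fold change of -0.60 (SE 0.12) at higher and 0.18 (SE 0.14) at lower clock output, with an adjusted p of 0.528 for the difference in edgeR. Edn3, the gene of an endothelin peptide, had -0.53 at higher and 0.13 at lower clock output (adjusted p = 0.703). Snapc1 had 0.19 at higher and -0.13 at lower clock output (adjusted p = 0.464), Fastkd5 had 0.16 at higher and -0.32 at lower clock output (adjusted p = 0.528), and D10Wsu102e had 0.15 at higher and -0.09 at lower (adjusted p = 0.802).

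**Figure D5:**
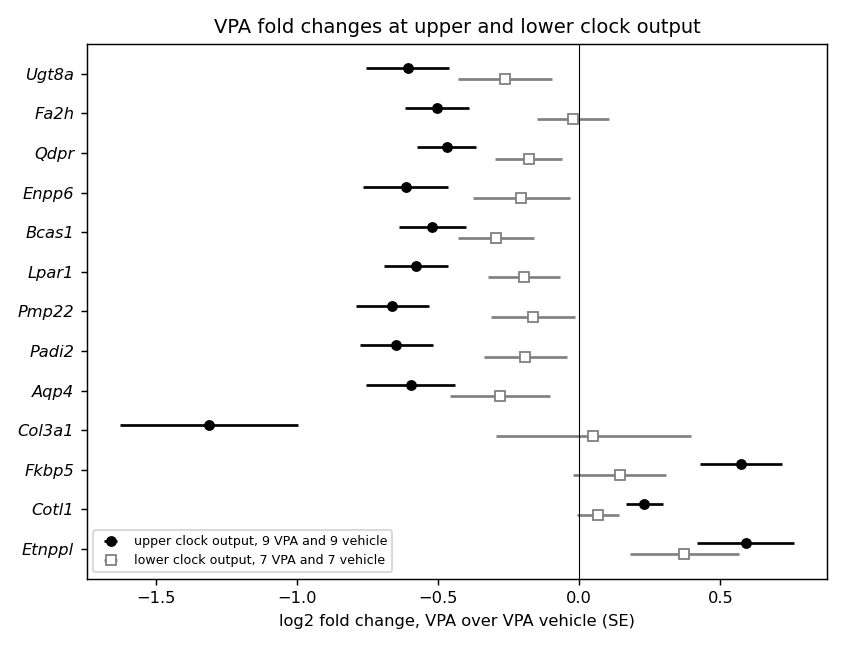
Log2 fold change of VPA over vehicle with its SE for 13 named genes, from 1 model over 32 libraries. Black circles are the 18 libraries at higher clock output and open squares the 14 at lower clock output. Fa2h is at -0.50 at higher and -0.02 at lower clock output, and no difference between the pairs passed.

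ACY957 inhibits class I histone deacetylases, and its libraries at higher clock output (9 ACY957, 8 of its own vehicle) allow the VPA difference to be set against that of another deacetylase inhibitor without shared controls. By label, 7 ACY957 libraries were wildtype and 2 mutant, against 5 wildtype and 3 mutant in their vehicle. The VPA groups differed more in label, and also in depth. The part of this in the difference between the drugs was not tested. Of 15014 genes 1 passed for the difference between the drugs in edgeR (0.00666%), and 1152 had an unadjusted p under 0.05. DESeq2 called 9 genes and limma voom 0. The gene was Nmu, the neuromedin U precursor, with 0.11 to 0.86 CPM (median 0.59) in VPA libraries, against 0.30 to 1.25 CPM (median 0.47) in their vehicle libraries. In ACY957 libraries it had 1.92 to 16.2 CPM (median 5.86), against 0.46 to 0.79 CPM (median 0.58) in theirs. All 9 ACY957 libraries were above every VPA library, and no VPA library exceeded its highest vehicle library. The log2 fold change was -0.17 for VPA and 3.44 for ACY957, a difference of -3.61 (SE 0.53, adjusted p = 8.37e-04 in edgeR and 0.222 in limma voom).

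The myelin genes that passed with VPA had smaller fitted changes with ACY957, and none of these differences passed in edgeR. These genes were picked by their VPA change in the same libraries, so the sizes set side by side are a description. Qdpr was -0.47 (SE 0.08) with VPA and -0.04 (SE 0.08) with ACY957, a difference of -0.42 (SE 0.12, adjusted p = 0.345). Ugt8a was -0.60 with VPA and -0.20 with ACY957, a difference of -0.40 (SE 0.16, adjusted p = 0.572). Aqp4, of astrocytes, was -0.59 with VPA and 0.13 with ACY957, a difference of -0.72 (SE 0.18, adjusted p = 0.254). Of the 83 genes that fell with VPA, 63 were lower in fitted value with ACY957, at a median of -0.09, while 55.2% of all genes lower with VPA were lower with ACY957. The next 4 genes after Nmu did not pass. Acat3, an acetyl-CoA acetyltransferase, was -0.61 with VPA and 0.18 with ACY957, and Spag5, a spindle protein, was -0.26 with VPA and 0.47 with ACY957 (adjusted p = 0.0699 for both differences). Appl2, an endosomal adaptor, was -0.18 with VPA and 0.13 with ACY957 (adjusted p = 0.0699), and Thbs2, a matrix glycoprotein, was -0.34 with VPA and 0.11 with ACY957 (adjusted p = 0.126).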

How the data were processed

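The authors deposited raw counts of reads for 24421 gene symbols, with no normalization. Per the submitters' design text, stranded poly(A) libraries were read at 75 bases on a NextSeq 500, checked with FastQC 0.11.3, aligned with TopHat2 2.0.9 to mm10 and a human genome, and counted with HTSeq 0.6.1. Per the submitters' processing notes the aligner was HISAT2, so the sources differ. A voom transform is stated, but the deposited counts are whole numbers. No 2 of the kept libraries matched within counting noise: their counts varied 10.7 to 115 times as much as counting alone gives.

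Tests used edgeR 4.0.16 under R 4.3.3 (TMM, filterByExpr, quasi-likelihood F test), with Benjamini-Hochberg adjustment over all genes tested and a threshold of 0.05. The SE was taken as the absolute log2 fold change divided by the root of F. CPM is scaled over all 64 libraries. The precision of each library rests on its total of 21.3 to 37.5 M counts. DESeq2 1.42.0, limma 3.58.1 and sva 3.50.0 served as alternatives. The scripts were tested on simulated data. Positions are from GENCODE M21 (mm10), which held 23376 of the symbols.

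The libraries and gene lists were chosen with earlier results of these data known. Named genes were up to 15 genes per direction that passed, by p, list members that passed, up to 3 members per described list, and the 5 with the smallest p in each difference test, leaving out predicted genes and genes under 1 CPM that did not pass. Genes outside the rule are marked in the text as picked after their values were seen. Some genes are not reported here by name, though counts over lists include them. Lists were described by counts and medians, with no set test. Mice were taken as separate replicates, per the labels.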

Additional observations from a re-analysis of the deposited data

Results flagged for a closer look

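Single libraries stood far from the rest of their group in 12 of 174 groups of 9 values examined, and chance flags about 1 in 20 groups. VPA mouse 26 held 7 of the 12. Its CPM was 348 for Pmch (next library 21.04), 18.6 for Hcrt (1.33), 30.9 for Tac2 (6.57), 182 for Igfbp5 (130.3), 5.02 for Gabre (2.54) and 9.70 for Bfsp2 (7.15), each the highest of the VPA group, and 5.401 for Serpind1, the lowest (next 7.54). That mouse also had the lowest Th, at 44.1 CPM. Vehicle mouse 34 was highest of its group for Kctd5 at 53.8 CPM (next 45.1) and for Pmch at 12.8 CPM (next 7.54), with Th at 201 CPM. Fosl2 was highest at 14.2 CPM in VPA mouse 3 (next 9.24) and at 10.9 CPM in vehicle mouse 9 (next 4.81). Fabp7 was highest at 74.1 CPM in VPA mouse 7 (next 48.3). The part of tissue content in these values was not tested.

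The drugs differed for Nmu, where the VPA log2 fold change minus that of ACY957 was -3.61 (edgeR adjusted p = 8.37e-04), with all 9 ACY957 libraries above all 9 VPA libraries.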

How the results depend on the processing

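Against 89 genes and 4 myelin genes in the edgeR test, DESeq2 called 309 and 8, the label term left 5 and 0, wildtype-labelled mice alone 4 and 0, no selection on clock output with a label term 2 (Hcrt and Pmch, both higher) and 0, and the library total as a covariate or leaving out the 6 deepest VPA libraries 0 and 0. Both settings on depth were chosen after seeing the data. The setting with no selection on clock output also took in VPA mouse 58, which had 26.2 CPM of Th. At lower clock output, where that mouse lay, the log2 fold change was 3.70 for Pmch and 4.00 for Hcrt. The part of punch position in these 2 genes was not tested. All 64 libraries in 1 model called 240, both vehicles pooled 335 (63.9% lower), Th as a covariate 183, leaving out libraries low in Th 252 (73.4% lower), and 1 surrogate variable 198. Limma voom (80), RLE size factors (87) and no filter (62) stayed within 1.5 times. Leaving out 1 library gave 16 to 269 genes and 1 to 9 myelin genes. DESeq2 called 1 gene for higher minus lower clock output, and for VPA minus ACY957 it called 9 and limma voom 0. The causes of these shifts were not tested.

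In the settings that left out no single library, all 89 genes kept their direction. Lpar1, Serpinb1a, Pmp22, Padi2, Fbxo32, Ctsk, Serpind1, Fgfr2, Ugt8a, Rab7b, Serinc5, Col3a1, Bfsp2 and Micall1 passed in all 18 settings that each left out 1 library, Piga in 17, Fkbp5 in 16, Enpp6 in 11, Fa2h and Qdpr in 10, Cotl1 in 9, Aqp4 and Car2 in 8, Ndrg1 in 7, Bcas1 and Hsd11b1 in 6, Etnppl, Kctd5 and Gjb1 in 5, and Heph in 4.

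All 15 myelin genes were lower in the edgeR test. Of these, 11 were lower in wildtype-labelled mice, and 13 with pooled vehicles, without selection on clock output or without libraries low in Th. Signs of single genes were followed only for a set of named genes. Among that set, 5 genes that did not pass in the edgeR test changed sign. Clock, at -0.0023 in that test, was 0.0044 with limma voom, 0.0067 without a filter and 0.016 with the library total, and -0.035 to 0.049 with 1 library left out. Th, at 0.02 in the edgeR test (adjusted p = 0.991), was -0.46 with limma voom, -0.70 with the label term and -0.045 in wildtype-labelled mice. It was -0.044 with pooled vehicles, -0.21 without selection, -0.015 with 1 surrogate variable and -0.67 with the library total. Without the deepest libraries it was -0.74, and with 1 library left out -0.17 to 0.18. With Th as a covariate it was -0.0047, a value that the model holds near 0 because Th is on both sides. Tac2, at 1.52 in that test, was -0.18 without libraries low in Th, Fosl2 (0.60) was -0.050 without selection, and Sap30 (0.29) was -0.11 without the deepest VPA libraries. No paired analysis was possible because the labels give no number that the groups share.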

Other observations

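Further genes that fell with VPA at higher clock output were picked after their values were seen. Adamts4, a protease of matrix proteoglycans made by oligodendrocytes, had 19.9 to 36.5 CPM (median 27.1) with VPA and 27.8 to 52.01 CPM (median 38.4) with vehicle, and fell by 0.60 on the log2 scale (edgeR adjusted p = 0.0244). Klk6, a secreted serine protease of oligodendrocytes, had 18.4 to 48.5 CPM (median 42.1) with VPA and 31.4 to 104 CPM (median 72.6) with vehicle, and fell by 0.95 (adjusted p = 0.0496). Il33, an alarmin stored in nuclei of glia, had 121 to 176 CPM (median 137) with VPA and 147 to 232 CPM (median 196) with vehicle, and fell by 0.46 (adjusted p = 0.0273). Leaving out 1 library at a time, they passed in 13, 3 and 9 of 18 settings in that order.

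Fabp7, a fatty acid binding protein of astrocytes and progenitors, had 22.5 to 74.1 CPM (median 36.9) with VPA and 32.1 to 118 CPM (median 82.5) with vehicle, and fell by 1.04 (edgeR adjusted p = 0.0389). Aplnr, the apelin receptor, had 0.16 to 0.72 CPM with VPA and 0.23 to 2.55 CPM with vehicle, the largest fall of the 89 genes at -1.78 (adjusted p = 0.0190). Cd93, a receptor on endothelium, had 5.44 to 8.44 CPM with VPA and 7.20 to 11.8 CPM with vehicle, and fell by 0.54 (adjusted p = 0.0190). These passed in 6, 16 and 17 of the 18 settings that left out 1 library.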
